A study of Mus musculus with 18 samples.

Results

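The genes examined were 8 components of insulin receptor signalling in the liver: the insulin receptor Insr, its substrates Irs1 and Irs2, the PI3-kinase regulatory subunit Pik3r1, the kinases Akt1 and Akt2, the pseudokinase Trib1 and the sestrin Sesn3. They were taken by symbol from a fixed list and matched to Ensembl identifiers in a count table of 28030 genes. The list was chosen with earlier results of these data known. All 8 were in the table. Of these, 7 were among the 12477 genes with enough counts to be tested, and Sesn3 was not.

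Total RNA was sequenced from hepatocytes of wild-type C57BL/6J male mice aged 12 weeks on normal chow. The hepatocytes came from the pericentral side of the liver lobule, where blood leaves, or from the periportal side, where it enters, and were isolated with digitonin. This detergent lyses hepatocytes at the side of the lobule it reaches first, which leaves those of the opposite side to be harvested. Each zone was sampled in 3 states, which gave 6 groups of 3 libraries: pericentral fed, periportal fed, pericentral 8 h fast, periportal 8 h fast, pericentral 24 h fast and periportal 24 h fast. Every group had been trained for 3 days to a 16 h overnight fast and 8 h of daytime feeding, and every group received food with 20% sucrose in the drinking water on the last day. Fed mice were killed after 4 h of this feeding, at clock hour 13. For the fasts, food and sucrose were withdrawn at clock hour 13, and tissue was taken at clock hour 21 (8 h fast) or at clock hour 13 of the following day (24 h fast). In the 8 h groups the effects of clock hour and of fasting cannot be told apart. The title of the series names gluconeogenic gene expression across zones and states as the study's subject.

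Insulin binds the receptor encoded by Insr, whose kinase phosphorylates the adaptor proteins Irs1 and Irs2. These recruit PI3-kinase, a regulatory subunit (Pik3r1) joined to a catalytic one, and the lipid it makes brings Akt1 and Akt2 to the membrane. In hepatocytes active Akt keeps FOXO transcription factors out of the nucleus and promotes glycogen and lipid synthesis, so this chain links feeding to lower glucose output.

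Irs1 and Irs2 both encode substrates of the same receptor, and only Irs2 differed between fasted and fed groups in the tests given here. Their upstream sequences are therefore shown. Each is the 250 bases before the annotated start in RefSeq (mouse build GRCm38.p6), written 5′ to 3′ on the gene's own strand, the minus strand in both cases. The Irs2 window is chr8:11008930-11009179 and the Irs1 window is chr1:82291440-82291689. The gene positions given below start, on the minus strand, at chr8:11008458 for Irs2 and chr1:82291416 for Irs1, short of the RefSeq starts. Distances before the start are from the RefSeq starts only. Capitals mark matches to the motifs TGTTTTG (the core of insulin response elements, to which FOXO proteins can bind), CACGTG (the E-box) and TGACG (the short form of the cyclic AMP response element), with neighbouring matches run together where they touch or overlap.
Irs2: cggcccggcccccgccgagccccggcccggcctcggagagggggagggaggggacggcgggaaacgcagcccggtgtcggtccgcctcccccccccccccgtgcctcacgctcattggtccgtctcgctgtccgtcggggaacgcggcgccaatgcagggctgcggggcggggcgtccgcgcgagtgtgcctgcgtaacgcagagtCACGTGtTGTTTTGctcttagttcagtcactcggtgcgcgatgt
Irs1: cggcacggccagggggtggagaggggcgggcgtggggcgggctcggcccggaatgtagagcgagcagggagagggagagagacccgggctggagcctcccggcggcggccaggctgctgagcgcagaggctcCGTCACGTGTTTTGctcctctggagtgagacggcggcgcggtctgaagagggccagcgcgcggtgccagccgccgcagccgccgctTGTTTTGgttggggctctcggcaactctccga

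Both windows held the E-box and TGTTTTG, close together in Irs2 and overlapping in Irs1. In Irs2 the E-box began 44 bases and TGTTTTG 37 bases before the start. In Irs1 the E-box began 115 bases before the start and overlapped a TGTTTTG that began at 111, a second TGTTTTG began at 32, and a TGACG on the opposite strand began at 118 and overlapped the E-box. Searched on both strands, TGTTTTG was in 5.56% of 32851 such windows of the mouse genome and CACGTG in 6.02%. Both were in 97 windows, or 0.295%, at any distance from each other. This share is not that of the close arrangement in Irs1 and Irs2. TGACG was in 17.8% and the FOXO consensus GTAAACA in 3.17%, and neither Irs window held GTAAACA. RefSeq windows were matched for 6 of the 8 genes. TGTTTTG and CACGTG were not in the windows of Pik3r1, Akt1, Akt2 or Sesn3. Of the windows matched for Akt1, 1 held GTAAACA, on the opposite strand 161 bases before the start. TGACG was in 1 window of Pik3r1, on the opposite strand at 35, and in 2 of Akt2, at 44 and, on the opposite strand, at 66. The motifs were chosen after expression values had been seen, and a match describes the letters only.

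The 18 libraries held 1.84e+07 to 2.64e+07 estimated counts each, in 15145 to 15840 genes. The labelled zones were borne out by marker genes. The summed level of 6 pericentral markers was 9444 to 18580 CPM (counts scaled to a common library total) in pericentral libraries and 421.8 to 2049 CPM in periportal libraries, and that of 6 periportal markers was 279.5 to 1810 and 3327 to 5650 CPM. Replicate 2 of the pericentral 24 h group had Glul, a marker of the innermost pericentral cells, at 110.9 CPM against 928 and 707.2 CPM in the other replicates, although the sum of its pericentral markers stayed in the pericentral range. Markers of other cell types were low: 6 sinusoidal endothelial genes summed to 3.08 to 39.0 CPM, 6 Kupffer cell and leukocyte genes to 0.372 to 17.98 CPM, 6 stellate cell genes to 0.696 to 14.77 CPM and 5 cholangiocyte genes to 19.3 to 56.66 CPM, with Epcam at 0 in every library. Nothing in the labels says whether replicates are separate mice or whether both zones of 1 number share a mouse, so p-values measure the spread between these libraries, which may be technical in part. In bulk libraries, fewer cells expressing a gene and less RNA per cell cannot be told apart.

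The front of the chain differed between fasted and fed groups in 3 places. RNA of the receptor and of Irs2 was higher in the fasted groups, and RNA of Pik3r1 was lower. These differences passed the test in both zones and at both times, though at 8 h clock hour differed as well. Irs1 and Akt2 passed in none of 16 contrasts, Akt1 was lower at 8 h, and Trib1 was called only between the fasts. With edgeR's quasi-likelihood test and Benjamini-Hochberg adjustment over all genes, 3 of 7 genes were called at an adjusted p under 0.05 in pericentral cells at 8 h against fed, where 13.8% of all genes were called, and 3 of 7 at 24 h, against 21.8%. In periportal cells 4 of 7 were called at 8 h, against 14.4%, and 3 of 7 at 24 h, against 19.6%. Averaged over the zones the counts were 4 of 7 at 8 h and 3 of 7 at 24 h, beside 26.4% and 34.5% of all genes. Insr, Irs2 and Pik3r1 were called in all 4 within-zone contrasts of a fast with the fed state, as were 604 of all genes tested, or 4.84%. The median log2 fold change of the 7 genes over both zones was -0.14 at 8 h and 0.25 at 24 h, and that of all genes 0.01 and 0.01. Libraries of the compared groups did not overlap for 3 of 7 genes at 8 h and 3 of 7 at 24 h in pericentral cells, and for 4 of 7 and 4 of 7 in periportal cells, beside 32.2%, 38.7%, 31.6% and 36.9% of all genes. The contrasts of 8 h and of 24 h with the fed state share the fed libraries.

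**Figure D1:**
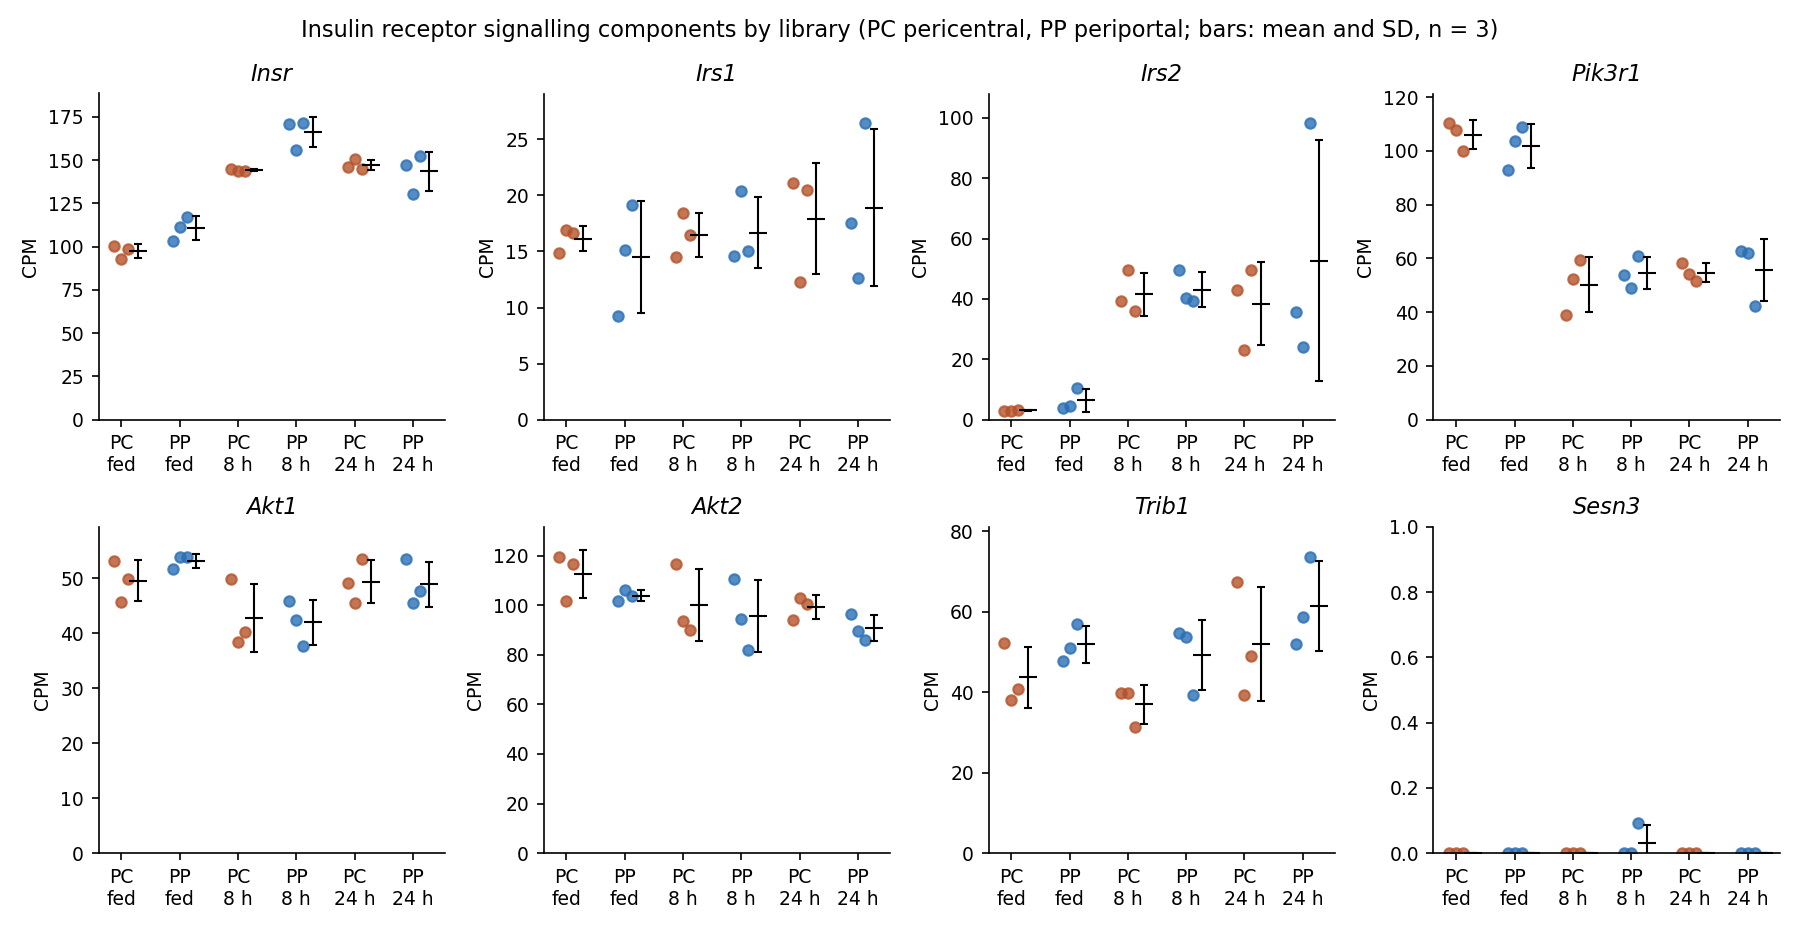
Level of each of the 8 genes in CPM (vertical axis, linear, starting at 0) in every library, by zone and state; points are libraries, and the bar beside them is the mean with the SD of 3 libraries. Insr and Irs2 are higher in all 12 fasted libraries than in any fed library, Pik3r1 is lower in all 12, and Sesn3 is at or near 0.

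Insr encodes the receptor itself (ENSMUSG00000005534; chr8:3122061-3279617, minus strand, 21 exons in the principal transcript, build GRCm38). In fed mice its level was 100.5, 92.9 and 98.5 CPM in the pericentral libraries and 103.4, 111.4 and 117.2 CPM in the periportal ones. After 8 h of fasting it was 144.7, 143.8 and 143.5 CPM in pericentral cells and 171.0, 155.9 and 171.3 CPM in periportal cells. After 24 h it was 146.2, 150.6 and 145.1 CPM in pericentral cells and 147.4, 130.6 and 152.2 CPM in periportal cells. Every fasted library lay above every fed one, whatever the zone. The highest group was periportal 8 h and the lowest pericentral fed, and the only neighbours in the order of group means whose libraries overlapped were pericentral 8 h (mean 144.0 CPM) and periportal 24 h (143.4 CPM).

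In pericentral cells Insr rose by a log2 fold change of 0.57 (SE 0.08, edgeR adjusted p = 0.000167) at 8 h and 0.60 (SE 0.08, edgeR adjusted p = 7.47e-05) at 24 h. In periportal cells it rose by 0.59 (SE 0.08, edgeR adjusted p = 0.000159) at 8 h and 0.37 (SE 0.08, edgeR adjusted p = 0.00364) at 24 h. Over both zones this was 1.49-fold at 8 h and 1.40-fold at 24 h. The later value is the one matched for clock hour with the fed state. These calls were kept with each library left out in turn.

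No zone contrast of Insr was called. In fed mice and at 8 h every periportal library was above every pericentral one, which was true in either direction of 28.3% and 23.9% of all genes. The log2 difference, periportal against pericentral, was 0.19 (95% interval 0.02 to 0.35, edgeR adjusted p = 0.19) in the fed state and 0.21 (0.04 to 0.37, edgeR adjusted p = 0.14) at 8 h. At 24 h it was -0.04 (-0.21 to 0.13, edgeR adjusted p = 0.868), and the libraries overlapped. Over the 3 states it was 0.12 (0.02 to 0.22, edgeR adjusted p = 0.0857). Markers of endothelial and Kupffer cells also stood higher on the periportal side: 4 of 5 endothelial genes tested and 3 of 6 Kupffer cell and leukocyte genes were called in the mean zone contrast, with sums of 3.08 to 11.02 CPM and 0.372 to 4.596 CPM in pericentral libraries and 3.84 to 39.0 CPM and 0.727 to 17.98 CPM in periportal ones. All 6 periportal markers were called between the zones in each state, beside 8.01% (fed), 7.14% (8 h) and 4.17% (24 h) of all genes. Their median log2 difference was 4.26 in the fed state, 3.79 at 8 h and 2.08 at 24 h. The zone difference in their change, 24 h against fed, had a median of -1.8. It was called for 0 of the 6, in a contrast that called 2 of all genes tested (0.016%). In pericentral cells 5 of the 6 were called higher at 24 h than in the fed state, beside 21.8% of all genes called. Of 3 cholangiocyte genes tested, 2 were called higher on the periportal side in the mean zone contrast, beside 20.3% of all genes called. The 4 hepatocyte markers summed to 50940 to 91210 CPM in pericentral and 103500 to 174600 CPM in periportal libraries, with 1 of the 4 called higher there. The part of any of these sets of markers in the zone values of Insr was not tested.

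Irs2 encodes the insulin receptor substrate regarded as the more responsive to feeding in liver (ENSMUSG00000038894; chr8:10984681-11008458, minus strand, 2 exons). Of the 8 genes it moved the most. Fed levels were 2.9, 3.0 and 3.3 CPM in pericentral cells and 4.0, 4.4 and 10.7 CPM in periportal cells. At 8 h they were 39.2, 49.5 and 35.8 CPM in pericentral cells and 49.6, 40.1 and 39.2 CPM in periportal cells. At 24 h they were 42.9, 23.0 and 49.5 CPM in pericentral cells and 35.7, 24.2 and 98.2 CPM in periportal cells. The lowest fasted library was thus above the highest fed one in both zones, and the 4 fasted groups overlapped one another.

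The rise of Irs2 in pericentral cells was 3.76 on the log2 scale (SE 0.54, edgeR adjusted p = 0.000387) at 8 h and 3.64 (SE 0.53, edgeR adjusted p = 0.000364) at 24 h. Without the replicate low in Glul the 24 h value was 3.91. In periportal cells it was 2.75 (SE 0.50, edgeR adjusted p = 0.00262) at 8 h and 3.04 (SE 0.51, edgeR adjusted p = 0.001) at 24 h. Without periportal fed replicate 3 these values were 3.36 and 3.64, and without periportal 24 h replicate 3 the 24 h value was 2.22, all still called. The call at 24 h was lost when only its own groups were fitted, at a log2 fold change of 3.05 and an edgeR adjusted p of 0.0574. Over both zones Irs2 was 9.54-fold higher at 8 h and 10.16-fold higher at 24 h than in fed mice. The difference between the fasts over both zones was 0.09 (95% interval -0.60 to 0.78, edgeR adjusted p = 0.881).

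The zone values of Irs2 shifted with single periportal libraries. In the fed state all periportal libraries were above all pericentral ones, with a log2 difference of 1.06 (95% interval -0.09 to 2.2, edgeR adjusted p = 0.285). This fell to 0.45 without periportal fed replicate 3. At 24 h the difference was 0.46 (-0.53 to 1.44, edgeR adjusted p = 0.689), and -0.36 without periportal 24 h replicate 3. At 8 h it was 0.05 (-0.93 to 1.03, edgeR adjusted p = 0.966). The fold rise from fed to 8 h was nominally smaller in periportal cells, with a zone difference in the change of -1.01 (95% interval -2.52 to 0.50, edgeR adjusted p = 0.972), or -0.41 without periportal fed replicate 3. Periportal 24 h replicate 3 was also the highest of its group for Igfbp1, a secreted binding protein that insulin represses, at 1126 CPM against 202.4 and 296.9 CPM. In the pericentral 24 h group the replicate lowest in Irs2 was lowest in Igfbp1 as well, at 87.14 CPM against 347.6 and 420.9 CPM. The reason for this shared order was not tested.

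Irs1, the other receptor substrate expressed in liver (ENSMUSG00000055980; chr1:82233101-82291416, minus strand, 2 exons), did not pass the test in any contrast. Fed levels were 14.8, 16.9 and 16.6 CPM in pericentral cells and 9.2, 15.1 and 19.1 CPM in periportal cells. At 8 h they were 14.5, 18.4 and 16.5 CPM and 14.6, 20.4 and 15 CPM, and at 24 h 21.1, 12.2 and 20.5 CPM and 17.5, 12.6 and 26.4 CPM, pericentral first. All 6 groups overlapped their neighbours in the order of means. Over both zones the log2 fold change at 24 h was 0.26, with a 95% interval of -0.16 to 0.68 (edgeR adjusted p = 0.335), so a rise as large as that of Irs2 lay far outside the interval. The annotation has Gm9747 on the opposite strand sharing exon bases with Irs1, at 0 to 4.4 CPM, and 9530052E02Rik sharing exon bases with Irs2. Whether the counting used strand is not given in the sources used here, so reads in these overlaps cannot be assigned with certainty.

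Scaled to transcript length, the substrates changed places. Irs1 stood at 1.76 and Irs2 at 0.485 CPM per kilobase in pericentral fed cells, and at 1.59 and 1.0 CPM per kilobase in periportal fed cells. At 8 h Irs1 was at 1.80 and Irs2 at 6.57 CPM per kilobase in pericentral cells, and at 1.82 and 6.80 in periportal cells. The ratio of Irs2 to Irs1 on this scale ran from 0.256 to 0.805 in the 6 fed libraries (median 0.354) and from 2.72 to 5.37 in the 12 fasted libraries (median 3.32). Within the fed state it was 0.256 to 0.287 in pericentral and 0.421 to 0.805 in periportal libraries. In every fed library Irs1 was the more abundant of the pair, and in every fasted library Irs2 was. The ratios were formed after the levels had been seen and carry no test.

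**Figure D2:**
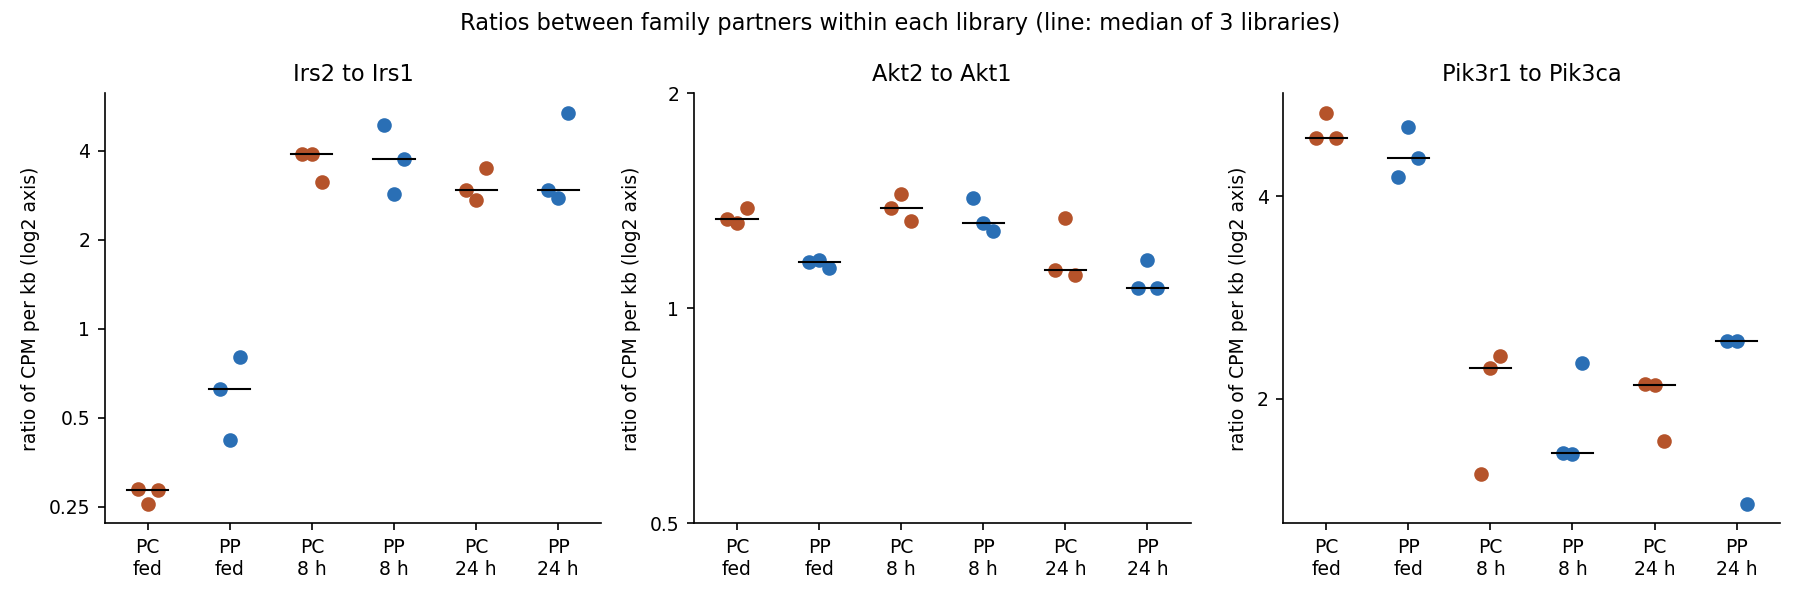
Ratio of levels per kilobase of transcript within each library (vertical axes, log2 scale) for Irs2 to Irs1, Akt2 to Akt1, and Pik3r1 to the PI3-kinase catalytic subunit Pik3ca; points are libraries by zone and state and lines are medians of 3. Irs2 to Irs1 lies at 0.805 or below in all fed and at 2.72 or above in all fasted libraries, and Pik3r1 to Pik3ca lies at 4.27 or above in all fed and at or below 2.44 in all fasted libraries.

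Pik3r1 encodes the regulatory subunit that docks PI3-kinase onto phosphorylated Irs proteins (ENSMUSG00000041417; chr13:101680563-101768217, minus strand, 16 exons). The annotation lists 7 transcripts, which include shorter forms, and counts summed per gene do not separate them. Fed levels were 110.3, 107.8 and 100 CPM in pericentral cells and 93.0, 103.6 and 108.8 CPM in periportal cells. At 8 h they were 39.1, 52.3 and 59.4 CPM in pericentral cells and 53.9, 49.1 and 60.8 CPM in periportal cells. At 24 h they were 58.4, 54.0 and 51.6 CPM in pericentral cells and 62.7, 62.1 and 42.2 CPM in periportal cells. Both fed groups lay wholly above all fasted groups, and the zones overlapped in every state.

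In pericentral cells Pik3r1 fell by 1.08 on the log2 scale (SE 0.15, edgeR adjusted p = 0.000163) at 8 h and by 0.96 (SE 0.15, edgeR adjusted p = 0.000328) at 24 h. In periportal cells it fell by 0.90 (SE 0.15, edgeR adjusted p = 0.000864) at 8 h and by 0.87 (SE 0.15, edgeR adjusted p = 0.000824) at 24 h. Averaged over the zones, its level at 24 h was 0.531 of that in fed mice. Between zones the mean log2 difference was 0.03 (95% interval -0.16 to 0.21, edgeR adjusted p = 0.872). The zone difference in the change was 0.18 (-0.27 to 0.63) at 8 h and 0.09 (-0.37 to 0.54) at 24 h.

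The catalytic subunit Pik3ca moved the other way, with a log2 rise of 0.35 over both zones at 24 h (SE 0.07, edgeR adjusted p = 0.00107). Per kilobase of transcript, Pik3r1 was 4.27 to 5.32 times Pik3ca in fed libraries (median 4.88) and 1.40 to 2.44 times in fasted libraries (median 2.10). The ranges did not overlap. Like the ratio of the substrates, this one was chosen after seeing the levels.

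Akt1 and Akt2 encode kinases that carry the signal on to FOXO, glycogen synthase kinase and mTOR. Akt1 (ENSMUSG00000001729; chr12:112653821-112674884, minus strand) stood at 53.1, 45.7 and 49.9 CPM in pericentral fed and 51.7, 53.9 and 53.9 CPM in periportal fed libraries. At 8 h its level was 49.9, 38.4 and 40.2 CPM in pericentral cells and 45.9, 42.4 and 37.7 CPM in periportal cells. At 24 h it was 49.2, 45.6 and 53.5 CPM in pericentral cells and 53.4, 45.5 and 47.8 CPM in periportal cells. Neighbouring groups overlapped throughout the order of means, and only periportal fed and periportal 8 h, at opposite ends of it, were fully separated among the contrasts with the fed state. Groups did not overlap in 31.6% of all genes in that contrast.

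Over both zones Akt1 fell by 0.28 on the log2 scale at 8 h (SE 0.08, edgeR adjusted p = 0.0131), which is a level of 0.826 of that in fed mice. At 24 h the change was -0.06 (95% interval -0.23 to 0.10, edgeR adjusted p = 0.573). In periportal cells alone the 8 h change was -0.34 (SE 0.11, edgeR adjusted p = 0.0458), a call lost without the count filter, when only its own groups were fitted, and with any of 12 libraries left out (-0.36 to -0.27). In pericentral cells it was -0.21 (SE 0.11, edgeR adjusted p = 0.23). The zone difference in this change was -0.13 (95% interval -0.45 to 0.20, edgeR adjusted p = 0.98).

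Akt2, the isoform linked most closely to insulin action on metabolism (ENSMUSG00000004056; chr7:27591552-27640826, plus strand), was called in no contrast. Its fed level was 119.6, 101.6 and 116.5 CPM in pericentral cells and 101.6, 106.2 and 103.9 CPM in periportal cells. At 8 h it was 116.5, 93.7 and 90.0 CPM in pericentral cells and 110.6, 94.5 and 81.9 CPM in periportal cells. At 24 h it was 94.0, 103.1 and 100.6 CPM in pericentral cells and 96.3, 89.7 and 86.1 CPM in periportal cells. Periportal 24 h libraries all lay below periportal fed libraries, as groups of that contrast were separated in 36.9% of genes, and the other contrasts overlapped. Over both zones the 24 h log2 fold change of Akt2 was -0.19 (95% interval -0.36 to -0.02, edgeR adjusted p = 0.0789), and it was called when only the groups of that contrast were fitted (-0.19) or with 1 of 3 libraries left out (replicate 2 of pericentral fed or replicate 1 of either 8 h group, -0.23 to -0.20). Across the 13 contrasts of levels its log2 fold changes ran from -0.20 to -0.01. Per kilobase of the principal transcript, Akt2 was above Akt1 in all 18 libraries. It was 1.14 to 1.38 times Akt1 in fed, 1.29 to 1.45 times in 8 h and 1.07 to 1.34 times in 24 h libraries. The annotation lists 14 transcripts for Akt2 and 9 for Akt1, which counts summed per gene do not separate. The order of the 2 genes therefore depends on the lengths used, 4544 bases for Akt2 and 2690 for Akt1.

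**Figure D3:**
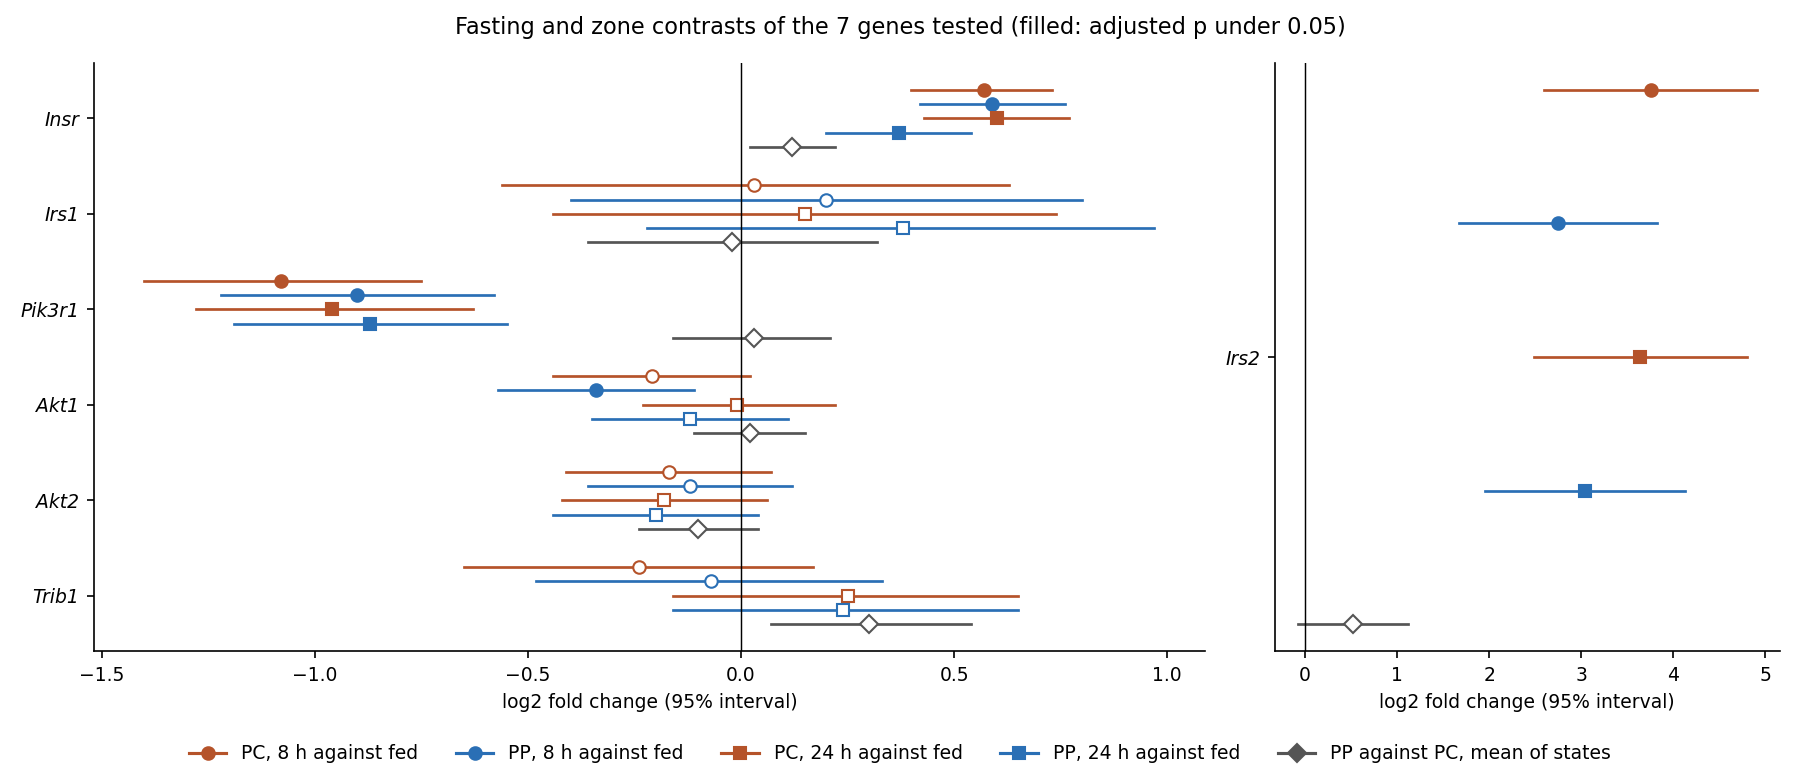
Log2 fold changes (horizontal axes, with 95% intervals) of the 7 genes tested, for 8 h and 24 h against fed in each zone and for periportal against pericentral over the 3 states; filled symbols have an adjusted p under 0.05, and Irs2 has its own scale. Fasting contrasts of Insr, Irs2 and Pik3r1 are all filled, and no zone contrast is.

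Trib1 encodes a pseudokinase that brings the ubiquitin ligase COP1 to its targets, among them C/EBPalpha, and relatives of it have been described as Akt-binding proteins (ENSMUSG00000032501; chr15:59648350-59657099, plus strand, 3 exons). Fed levels were 52.3, 38.0 and 40.7 CPM in pericentral cells and 47.8, 51.0 and 56.9 CPM in periportal cells. At 8 h they were 39.7, 39.9 and 31.4 CPM in pericentral cells and 54.7, 53.8 and 39.3 CPM in periportal cells. At 24 h they were 67.3, 39.4 and 49.0 CPM in pericentral cells and 51.9, 58.7 and 73.7 CPM in periportal cells. The libraries of each pair of neighbouring groups overlapped.

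Of the contrasts between the fasts, only that over both zones held a call, that of Trib1, 1 of 7 genes against 20.2% of all genes. It was higher at 24 h than at 8 h by 0.40 on the log2 scale (SE 0.14, edgeR adjusted p = 0.0463), a contrast in which clock hour also differs. The call was lost in 4 of the 6 alternative analyses that kept every library of the contrast. It was also lost with any of 15 libraries left out in turn, with values of 0.27 to 0.44. Against the fed state the change over both zones was -0.16 (95% interval -0.45 to 0.13) at 8 h and 0.25 (-0.04 to 0.53) at 24 h. Trib1 had the highest mean zone difference after Irs2, 0.30 (95% interval 0.07 to 0.54, edgeR adjusted p = 0.0669). By state the periportal excess was 0.25 (fed), 0.41 (8 h) and 0.24 (24 h), none of them called. Some endothelial and Kupffer cell markers were also called higher on the periportal side in the mean zone contrast. Their part in the zone values of Trib1 was not tested.

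Sesn3 encodes a sestrin, a family of stress-induced proteins that act on mTOR signalling, and it has been described as a FOXO target that favours Akt activity (ENSMUSG00000032009; chr9:14275067-14333101, plus strand). It was listed at 0 in 17 libraries and at 2.05 estimated counts (0.0932 CPM) in periportal 8 h replicate 3, out of 4.33e+08 counts in all. A count of 0 allows up to 3 counts, which is 0.104 to 0.168 CPM in these libraries and covers counting error only. Sesn3 was therefore not detected above this limit, and no fold change is given. Each of 10 genes used by every cell, such as Actb and Tbp, had counts in every library. These genes cannot show how Sesn3 was handled. How transcripts were assigned to Sesn3 is not given in the sources used here. Its relative Sesn1 was at 7.60 to 11.97 CPM over all libraries. Sesn2, the other relative, was at 3.31 to 5.00 CPM in fed and 9.24 to 20.24 CPM in fasted libraries.

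No zone contrast called any of the 7 genes. Of all genes, edgeR called 8.01% in the fed state, 7.14% at 8 h, 4.17% at 24 h and 20.3% over the 3 states. At an unadjusted p under 0.05 the members numbered 1, 2, 0 and 2 of 7, beside 21.0%, 20.9%, 16.8% and 31.6% of all genes, and DESeq2 called 0 members within any state but Insr and Trib1 over the 3 states. Zones did not overlap for 2 of 7 members in the fed state, 1 at 8 h and 0 at 24 h, beside 28.3%, 23.9% and 22.1% of all genes. No member was called between the fasts within a zone, where edgeR called 9.71% of genes in pericentral and 7.46% in periportal cells. Libraries at 24 h and 8 h did not overlap for Insr alone, in both zones, as for 28.9% and 25.4% of all genes. At an unadjusted p under 0.05 there was 1 of 7 members in each, beside 24.2% and 22.3% of all genes, and DESeq2 called 0 and 1. The zone difference in the change, fast against fed, was called for 0 members at 8 h and 0 at 24 h, with 0 and 2 of all genes (0.016%) called. Between the fasts the same contrast called 0 members and 0 genes, and of the 3 such contrasts 1 held a member at an unadjusted p under 0.05, Insr between the fasts, beside 5.98% of all genes. DESeq2 called 0 members in each of the 3.

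The wider pathway was read from 7 lists of 67 other signalling genes, of which 64 were tested, and from readouts of insulin state. At 24 h against fed over both zones 18 of the 64 were higher and 7 lower, which is 39.1% against 34.5% of all genes, with a median log2 fold change of 0.10 against 0.01. At 8 h 18 were higher and 3 lower, 32.8% against 26.4%. The lists were chosen with earlier results of these data known.

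The counts by list that follow are for 24 h against fed over both zones, where 34.5% of all genes were called. Of 7 other receptor and adaptor genes, 1 was higher and none lower: Sh2b1, an adaptor that enhances receptor signalling, rose by 0.56 on the log2 scale (SE 0.17, edgeR adjusted p = 0.0187). Of 10 genes that restrain the receptor or clear insulin, 1 was higher and 2 lower. Ide, the insulin-degrading enzyme, fell by 0.36 (SE 0.05, edgeR adjusted p = 6.95e-05). Ptprf, a receptor-type phosphatase, fell by 0.46 (SE 0.10, edgeR adjusted p = 0.00136). Enpp1, an inhibitor of the receptor, rose by 0.23 (SE 0.08, edgeR adjusted p = 0.0447).

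Among 5 other PI3-kinase genes and PDK1, 2 were higher and 1 lower at 24 h, beside the same 34.5% of all genes. Pik3r3, a regulatory subunit related to Pik3r1, fell by 1.47 (SE 0.22, edgeR adjusted p = 6.96e-05), from 2.46 to 4.87 CPM in fed to 0.919 to 2.27 CPM in 24 h libraries. Pdpk1, the kinase that activates Akt, rose by 0.32 (SE 0.08, edgeR adjusted p = 0.00771). Of 7 phosphatases that act on the lipid signal or on Akt, 3 were higher and none lower. They were Inpp4a (0.95, SE 0.12, edgeR adjusted p = 1.11e-05), Inpp5k (0.54, SE 0.12) and Phlpp1 (0.38, SE 0.14).

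Downstream, 5 of 9 genes on the list of Akt and its substrates were higher at 24 h and none lower, beside 34.5% of all genes called in either direction. Foxo1, the transcription factor that Akt excludes from the nucleus, rose by 1.32 (SE 0.12, edgeR adjusted p = 6.5e-07), from 21.66 to 30.48 CPM in fed to 59.05 to 84.72 CPM in 24 h libraries, which did not overlap. Foxo3 rose by 0.76 (SE 0.12) and Gsk3a by 0.34 (SE 0.05). Of 13 mTOR and TSC genes 4 were higher and 2 lower. The mTOR complex subunit Rictor rose by 0.63 (SE 0.09), the translation repressor Eif4ebp1 by 0.54 (SE 0.08) and Tsc1, which restrains mTOR, by 0.56 (SE 0.08). Of 13 tribbles, sestrin and partner genes 2 were higher, Sesn2 by 1.97 (SE 0.14, edgeR adjusted p = 6.25e-08) and Trib3 by 0.87 (SE 0.21, edgeR adjusted p = 0.0035), and 2 lower, of which Sec13 fell by 0.30 (SE 0.08, edgeR adjusted p = 0.00619).

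The 3 readouts of insulin state given here, genes known to follow it in liver, passed at 24 h. Srebf1, a driver of lipid synthesis that insulin induces, fell by 3.47 (SE 0.26, edgeR adjusted p = 2.77e-07). Pck1, a gluconeogenic enzyme, rose by 3.54 (SE 0.36, edgeR adjusted p = 4.09e-06), and Igfbp1 rose by 4.62 (SE 0.57, edgeR adjusted p = 3.48e-05). The rise of Irs2 lay between those of Foxo1 and Pck1 in size.

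**Figure D4:**
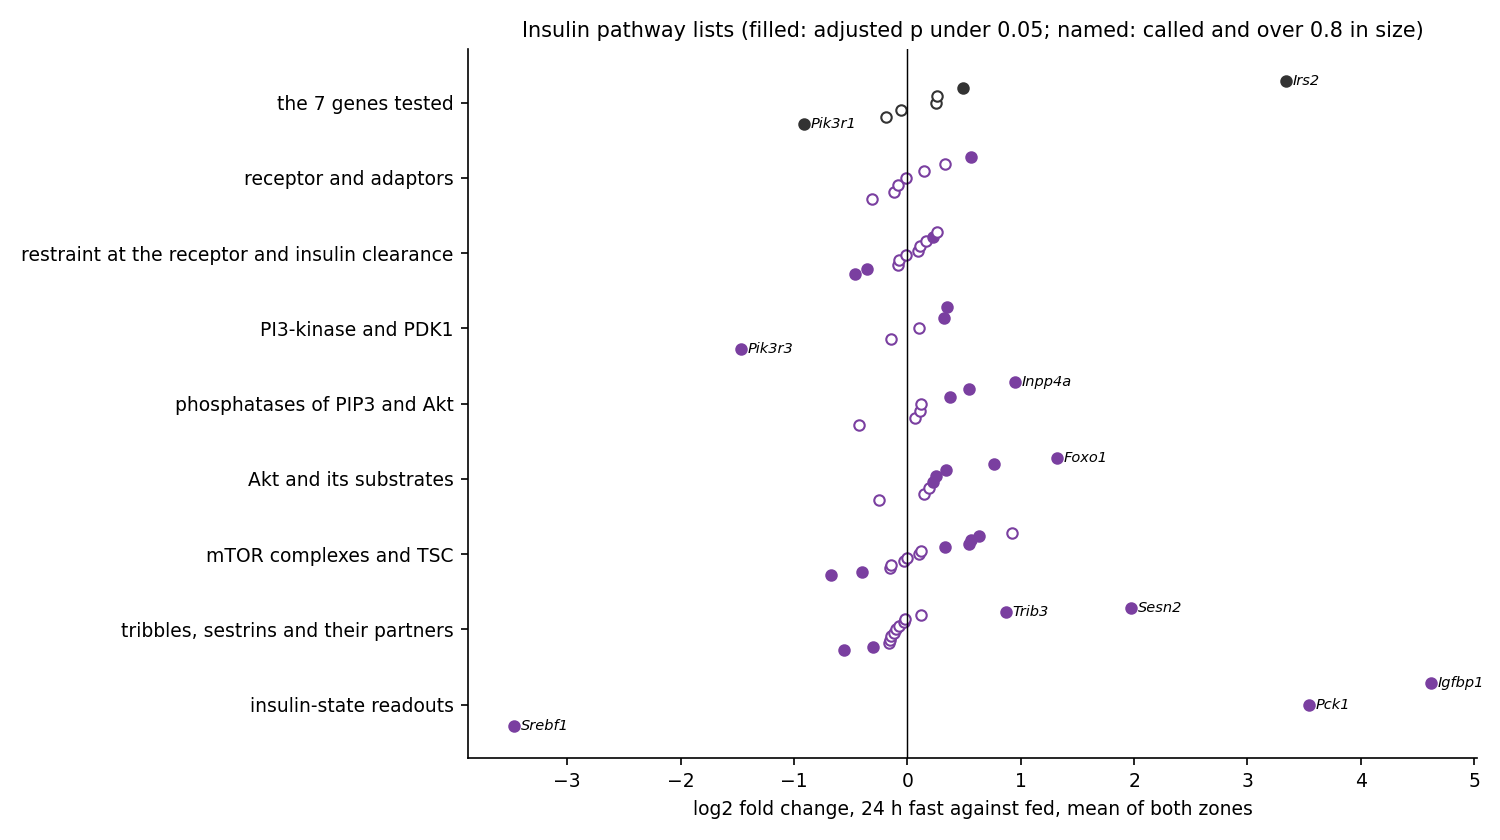
Log2 fold change at 24 h against fed over both zones (horizontal axis) for the 7 genes tested and for each pathway list (rows); each point is one of the listed genes shown, filled where the adjusted p is under 0.05, and called genes beyond 0.8 in size are named. Irs2 sits near Pck1 on the right, and Pik3r1 near Pik3r3 on the left.

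The same lists were read between the zones. Over the 3 states 2 of the 64 were higher and 7 lower in periportal cells, 14.1% against 20.3% of all genes. Enpp1 was lower there by 0.53 on the log2 scale (log2 fold change -0.53, SE 0.07, edgeR adjusted p = 2.91e-05), and Pik3r3 had a value of -0.52 (SE 0.18, edgeR adjusted p = 0.0437). Higher there were Ceacam1, which aids insulin clearance (0.38, SE 0.08, edgeR adjusted p = 0.00352), and Inpp4a (0.39, SE 0.09, edgeR adjusted p = 0.00641). Pck1 was higher on the periportal side by 1.43 (SE 0.27, edgeR adjusted p = 0.00146).

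Of 4 clock genes read, Dbp and Arntl in the 8 h groups, sampled at another clock hour, lay apart from all other libraries. For Per1 and Nr1d1 the 8 h libraries overlapped the fed ones. At 24 h against 8 h over both zones, 3 of the 4 were called higher and 1 lower, beside 20.2% of all genes called. Dbp was at 0.116 to 1.258 CPM in 8 h libraries and at 11.31 to 63.5 CPM in all others, and Arntl at 28.04 to 34.65 CPM against 2.83 to 13.93 CPM. Per1 was at 17.84 to 32.18 CPM in fed, 18.8 to 27.63 CPM in 8 h and 36.91 to 47.09 CPM in 24 h libraries, and Nr1d1 at 5.607 to 13.11, 4.547 to 8.082 and 7.385 to 22.87 CPM. At 24 h against fed over both zones, with clock hour matched, 1 of the 4 was called, Per1, which rose by 0.88 on the log2 scale (SE 0.12, edgeR adjusted p = 2.33e-05). The change of Dbp was 0.36 (SE 0.32), that of Arntl 0.51 (SE 0.25) and that of Nr1d1 0.32 (SE 0.26), none of them called. The differences of Insr, Irs2 and Pik3r1 between 8 h and 24 h over both zones were -0.09 (95% interval -0.21 to 0.03), 0.09 (-0.60 to 0.78) and 0.07 (-0.15 to 0.30). Clock hour and length of fast both differ between these groups. The part of the clock in the values of Insr, Irs2 and Pik3r1 was not tested. Nor was its part in the 8 h change of Akt1 or in the rise of Trib1 from 8 h to 24 h.

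Genes whose pattern over the 18 libraries was nearest to that of a member were found by the root mean square difference in log2 CPM, each gene centred on its own mean, among 6581 genes. Nearest to Insr were Rnf146, Kdm5a and Ncoa2, each at 0.10 where Insr itself had an SD of 0.28. Nearest to Irs2 were Ccng2 (0.61), Nlrp12 (0.63) and Tcp11l2 (0.66), against an SD of 1.68 for Irs2. For Pik3r1 (SD 0.50) they were Epm2aip1 (0.22), Fkbp4 (0.23) and Nfic (0.23). For Akt1 (SD 0.17) they were Ehmt2 (0.09), Pitpnb (0.10) and Capzb (0.10), and for Trib1 (SD 0.32) Kif21a (0.18), Dusp16 (0.18) and Otud7b (0.19). Ccng2 for example averaged 6.28 CPM in fed, 37.2 CPM in 8 h and 28.92 CPM in 24 h libraries.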

How the data were processed

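RNA was sequenced in 18 libraries, 6 groups of 3, grouped by their labels. The values the authors deposited are estimated counts, in a single table of genes by libraries. The submitters' processing notes name kallisto 0.46.0 and mm10, without their role. The annotation, how transcripts were summed to genes and the use of strand are not given in the sources used here. Between 67.5% and 70.5% of values were whole within 1e-09, and they were rounded before testing. Every sample column was mapped by its label.

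The main test was edgeR 4.0.16's quasi-likelihood F test in R 4.3.3 (robust, TMM factors, filterByExpr, 6 group coefficients, no covariates), fitted to 12477 genes. In every library these genes took up 99.95% or more of the total. From this fit 16 contrasts were taken. P-values were adjusted by Benjamini-Hochberg over all genes within a contrast, with calls at 0.05. Standard errors (SE) are the log2 fold change divided by the root of its F statistic. CPM are counts scaled to a common TMM-adjusted total, with a prior count of 2 only for log2 likeness. Per-kilobase levels divide CPM by the length of the principal GENCODE transcript in GRCm38. Scripts were tested on simulated data. The precision rests on 3 libraries a group.

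Alternatives were DESeq2 size factors, no filter beyond a summed count of 1 (20481 genes), the DESeq2 1.42.0 Wald test, limma-voom (limma 3.58.1), only the contrast's groups, the replicate number as a block, and each library left out in turn. The numbers were not taken to pair the samples.

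The members and lists were chosen with earlier results of these data known. Named were all 8 members, per pathway list up to 3 genes with the smallest adjusted p among those called at 24 h against fed over both zones and up to 2 in the mean zone contrast, the readouts and clock genes, and for each member called at least once the 3 genes nearest in pattern with a mean of at least 10 CPM. Of the zone genes by this rule, those not described are in the counts only, and 2 genes of the lists are not reported here. Igfbp1 beside Irs2, Glul, Actb, Tbp, Gm9747, 9530052E02Rik, Sesn1 and Epcam were named outside it, after their values were seen. Tissue markers were summed in CPM and not tested as sets. Every pair of replicates differed by more than sampling noise, with a chi-square per gene of at least 35.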

Additional observations from a re-analysis of the deposited data

Results flagged for a closer look

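Between the fasts every pericentral library at 24 h had more Insr than every one at 8 h, and every periportal library had less. Groups failed to overlap in this way, in either direction, for 28.9% of all genes in pericentral and 25.4% in periportal cells. The zone difference in this change was -0.24 on the log2 scale (SE 0.11, 95% interval -0.48 to -0.01, edgeR unadjusted p = 0.0455, adjusted p = 0.829), so it did not pass the correction over all genes. The change was 0.03 (95% interval -0.14 to 0.20, edgeR adjusted p = 0.853) in pericentral and -0.21 (SE 0.08, edgeR adjusted p = 0.122) in periportal cells, and neither passed. With each library left out in turn the zone difference was -0.29 to -0.18. Clock hour differs between the fasts in both zones. The median zone difference of 6 periportal markers was 3.79 at 8 h and 2.08 at 24 h, and the part of either in the Insr values was not tested.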

How the results depend on the processing

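For single genes 1316 alternative values were computed for 55 results: 34 lost a call, 12 gained one and 28 changed sign, 0 of these among called results. The calls of Insr, Irs2 and Pik3r1 for a fast against fed held under every alternative run, except that of Irs2 in periportal cells at 24 h given above. In the zone contrast over the 3 states the 0 members called became 2 with DESeq2's Wald test and 0 to 1 with a library left out. Fitting only the groups of that contrast was not run, since it uses all of them. In periportal cells between the fasts 0 became 1 with DESeq2 (Insr). Over both zones between the fasts the 1 became 0 without a filter, with limma-voom and with only those groups, 2 with DESeq2, and 0 to 1 with a library left out. The cause of these shifts was not tested.

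Of results that changed sign, the Irs2 difference between the fasts over both zones (0.09) was -0.05 with a replicate block and -0.07 with limma-voom. With a library left out, Irs2 ran from -0.32 to 0.26 there, -0.33 to 0.15 in pericentral and -0.53 to 0.64 in periportal cells. Its zone difference ran from -0.07 to 0.18 at 8 h and -0.36 to 0.80 at 24 h, and that in the change from -1.42 to 0.01 for 24 h against fed and -0.42 to 0.75 between the fasts. For Insr the zone difference ran from -0.08 to 0.02 at 24 h, and that in the change from -0.02 to 0.07 for 8 h against fed. For Pik3r1 the zone difference ran from -0.04 to 0.25 at 8 h, -0.07 to 0.19 at 24 h and -0.03 to 0.08 over the states. Between the fasts Pik3r1 ran from -0.04 to 0.25 in pericentral, -0.07 to 0.19 in periportal cells and -0.01 to 0.16 over both, and its zone difference in the change from -0.01 to 0.25 (24 h against fed) and -0.22 to 0.07 (between the fasts).

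Same-numbered pericentral and periportal libraries correlated at -0.01 to 0.17 in their deviations from group means over 9 pairs, of which 3 passed 0.1. These were all 3 at 24 h (0.12, 0.17 and 0.15), where different numbers gave -0.12 to -0.02, a hint of pairing at 24 h that the labels do not settle. Since the other 6 did not pass, the numbers were not taken to pair the samples. With the replicate number as a block the call of Trib1 between the fasts over both zones was lost (0.40) and Akt1 was called in its place. The count of members called was as without it in all 16 contrasts. This block joins libraries of the same number across the states as well as the zones. It therefore cannot show what pairing the zones within a mouse would do. Sesn3 was not detected, and the parts of depth and of transcript assignment in that were not tested.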
